A study of Homo sapiens with 12 samples.

Results

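The genes described here were 7 metallothioneins (MT1E, MT1F, MT1G, MT1H, MT1M, MT1X and MT2A), the zinc exporter SLC30A1 and the metal-sensing transcription factor MTF1, which together are the core of the cellular response to zinc. They were chosen by name, by matching their symbols to the Ensembl identifiers of the count tables, and all 9 were found among the 57500 genes counted. RNA was sequenced from HepG2 cells, a human hepatocellular carcinoma line, in 3 groups of 4 libraries. The WT group was unmodified HepG2, the shTST group carried an shRNA against thiosulfate sulfurtransferase (TST, rhodanese), the mitochondrial enzyme that transfers sulfur to cyanide, and the overTST group carried an added, codon-optimised and Myc-tagged TST under a CMV promoter. Per the study's methods, all cells were grown in normal medium with glycine and the engineered lines were made by lentiviral transduction and antibiotic selection, and the methods name wild-type cells as the control, with no mention of an empty-vector or scrambled control for these libraries. Transduction and selection therefore cannot be told apart from the change in TST in any comparison with WT. The replicates were stated to be independent, which the study takes in general to mean separate days and fresh cultures, all from the same lines.

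Metallothioneins are small cytosolic proteins whose many cysteines bind zinc, copper and cadmium, and the liver is among the tissues richest in them. Zinc that enters the cytosol binds MTF1, which moves to the nucleus and drives metallothionein genes and SLC30A1 through short promoter elements called metal response elements. The metallothioneins buffer the free metal and SLC30A1 carries zinc out of the cell across the plasma membrane. The transcripts of the metallothioneins and of SLC30A1 rise together when zinc is added to liver cells.

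The 7 metallothionein genes lie in 1 cluster on chromosome 16, within 74.2 kb counted from the start of MT2A to the start of MT1X, and MT1G alone is on the minus strand. MT2A spans chr16:56608199-56609497 and MT1X spans chr16:56682424-56684196 in GRCh38, both on the plus strand. SLC30A1 spans chr1:211571568-211578742 and MTF1 spans chr1:37809567-37859620, both on the minus strand. Each metallothionein transcript has 3 exons and a coding sequence of 186 bases for 61 residues, of which 20 are cysteines. The coding sequences of MT2A and of the MT1 genes with a change in 1 or both lines described below are shown 5′ to 3′. They are given as in the principal GENCODE transcripts, because these near copies may share reads. Capitals mark the codons for cysteine, the residue that holds the metal.
MT2A: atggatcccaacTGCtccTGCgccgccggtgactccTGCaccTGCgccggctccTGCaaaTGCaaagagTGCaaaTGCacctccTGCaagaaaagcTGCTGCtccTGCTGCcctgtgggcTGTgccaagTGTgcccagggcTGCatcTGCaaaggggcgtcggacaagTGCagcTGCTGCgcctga
MT1X: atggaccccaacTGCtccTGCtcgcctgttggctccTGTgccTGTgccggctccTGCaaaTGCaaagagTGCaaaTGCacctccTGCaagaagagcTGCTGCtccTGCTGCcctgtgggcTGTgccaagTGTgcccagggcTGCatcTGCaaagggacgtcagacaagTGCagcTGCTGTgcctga
MT1E: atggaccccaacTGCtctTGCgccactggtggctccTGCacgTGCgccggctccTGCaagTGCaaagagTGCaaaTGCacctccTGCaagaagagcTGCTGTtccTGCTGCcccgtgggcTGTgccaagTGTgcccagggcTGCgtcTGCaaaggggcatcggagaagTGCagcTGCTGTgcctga
MT1F: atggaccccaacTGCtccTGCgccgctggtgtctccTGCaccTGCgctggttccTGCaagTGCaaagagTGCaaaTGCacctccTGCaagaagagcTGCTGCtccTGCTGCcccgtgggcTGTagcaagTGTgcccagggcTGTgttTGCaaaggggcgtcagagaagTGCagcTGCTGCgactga
Between any pair of the 7 coding sequences, 88.7% to 95.2% of the 186 positions were identical, and MT1X and MT2A were identical at 92.5%. The longest run of identical bases between the transcripts of a pair was between 32 and 96 bases, with 63 for MT1X and MT2A, 96 for MT1G and MT1X, and 32 for MT1E and MT2A. Reads that fall in such runs may have been dropped or assigned to the wrong copy, and how the authors' counting treated them is not given in the sources used here. The counts of each metallothionein are uncertain to that extent, and whether the uncertainty was alike in the 3 groups was not tested. In addition, 321 exonic bases of MT1X are shared with an unnamed gene on the same strand, ENSG00000259827.

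Promoter windows were at hand in RefSeq (GRCh38.p14) for MT1H, MT1X, MT2A, SLC30A1 and MTF1. The 250 bases before the RefSeq transcription start are shown for the 3 of them whose transcripts differed between groups below, with the 7-letter core of the metal response element in capitals. The letters searched were TGCACNC and TGCGCNC on both strands, where N is any base, and overlapping matches are merged in the capitals. The RefSeq starts of MT2A and MT1X lie inside the gene spans given above, and that of SLC30A1 lies outside.
MT2A, chr16:56608334-56608583, plus strand: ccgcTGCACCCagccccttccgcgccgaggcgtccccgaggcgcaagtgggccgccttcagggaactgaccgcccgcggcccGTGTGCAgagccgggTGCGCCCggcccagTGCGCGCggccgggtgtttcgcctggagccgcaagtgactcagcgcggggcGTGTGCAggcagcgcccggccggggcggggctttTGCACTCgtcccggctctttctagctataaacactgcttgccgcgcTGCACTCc
MT1X, chr16:56682220-56682469, plus strand: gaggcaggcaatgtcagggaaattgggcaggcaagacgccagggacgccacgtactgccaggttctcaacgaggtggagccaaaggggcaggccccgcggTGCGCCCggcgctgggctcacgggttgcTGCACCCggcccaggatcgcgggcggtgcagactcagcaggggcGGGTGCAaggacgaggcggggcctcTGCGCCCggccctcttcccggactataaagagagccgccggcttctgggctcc
SLC30A1, chr1:211579162-211579411, minus strand: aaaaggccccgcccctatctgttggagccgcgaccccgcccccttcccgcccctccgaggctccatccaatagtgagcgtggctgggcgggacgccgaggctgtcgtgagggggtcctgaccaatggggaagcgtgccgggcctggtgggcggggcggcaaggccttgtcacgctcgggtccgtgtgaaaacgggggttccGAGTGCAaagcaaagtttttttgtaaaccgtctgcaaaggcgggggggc
The MT2A window held 7 matches, the nearest beginning 8 bases before the start, and the MT1X window held 4, the nearest beginning 53 bases before it. The SLC30A1 window held 1 match, 49 bases before the start, and the MTF1 window held 0. Among all 35116 promoter windows of this length, 24.8% held at least 1 match, 0.37% at least 4 and 0.0313% at least 7. The MT1H window held 8 matches, a number reached in 0.0171% of windows, although MT1H was close to absent from every library. A match is only a description of these letters and was not tested as a binding site.

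All 12 libraries had between 22911380 and 45120508 counts, and levels are given as CPM, the usual scaling of a gene's count to its library's size, here on TMM-scaled sizes. TST was 49.0 ± 2.59 CPM (SD, n = 4) in WT, 34.1 ± 1.62 in shTST and 57.9 ± 4.90 in overTST. Its log2 fold change from WT was -0.52 (SE 0.0549) in shTST and 0.24 (SE 0.062) in overTST, with edgeR adjusted p-values of 3.20e-06 and 0.00384, and the share of the codon-optimised transgene that could be counted as TST was not tested. All 11 hepatocyte markers on a fixed list, albumin and HNF4A among them, passed the filter on low counts, and their summed level was 21980 to 28890 CPM. Of 5 leukocyte markers, PTPRC, CD3E and TYROBP had at most 0.0335 CPM in any library, CD68 had 1.14 to 2.498 and LYZ had 1326 to 1740 CPM. The 4 endothelial markers summed to 2.51 to 3.29 CPM in WT, 1.81 to 2.16 in shTST and 3.39 to 3.91 in overTST, with KDR at 0 in every library. The 6 fibroblast markers summed to 21.6 to 25.2 CPM in WT, 17.0 to 19.4 in shTST and 15.9 to 17.9 in overTST, nearly all of it PDGFRB, with LUM at 0 in every library. The part of these markers in the results below was not tested.

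MT2A was the most abundant of the metallothioneins and MT1H the least. To compare genes, CPM was divided by the exonic length in kilobases. In WT cells MT2A stood at 236.1 ± 5.30 CPM per kb (SD, n = 4), MT1G at 133.7 ± 9.57 and MT1E at 102.9 ± 8.22, and the libraries of these 3 genes did not overlap. MT1X at 27.2 ± 2.71 and MT1F at 24.6 ± 2.33 CPM per kb followed, and their libraries overlapped on this length. The gap depends on the length used, since the principal transcripts, of 450 and 690 bases, gave 107.2 ± 10.7 and 67.4 ± 6.39 CPM per kb. The corresponding exonic values were 36.6 ± 2.71 and 25.7 ± 1.27 in shTST and 34.2 ± 2.65 and 27.8 ± 0.578 in overTST, and MT1X was above MT1F in each of the 12 libraries. SLC30A1 was at 12.6 ± 3.15 CPM per kb, and MT1M at 1.78 ± 0.18 was next to the transcription factor MTF1 at 1.47 ± 0.0609. MT1H had between 0 and 5 counts per library, was below the filter and was not tested. In the 6 libraries where it had no count, a floor of 3 counts allows at most 0.0869 to 0.136 CPM, for counting error only.

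**Figure D1:**
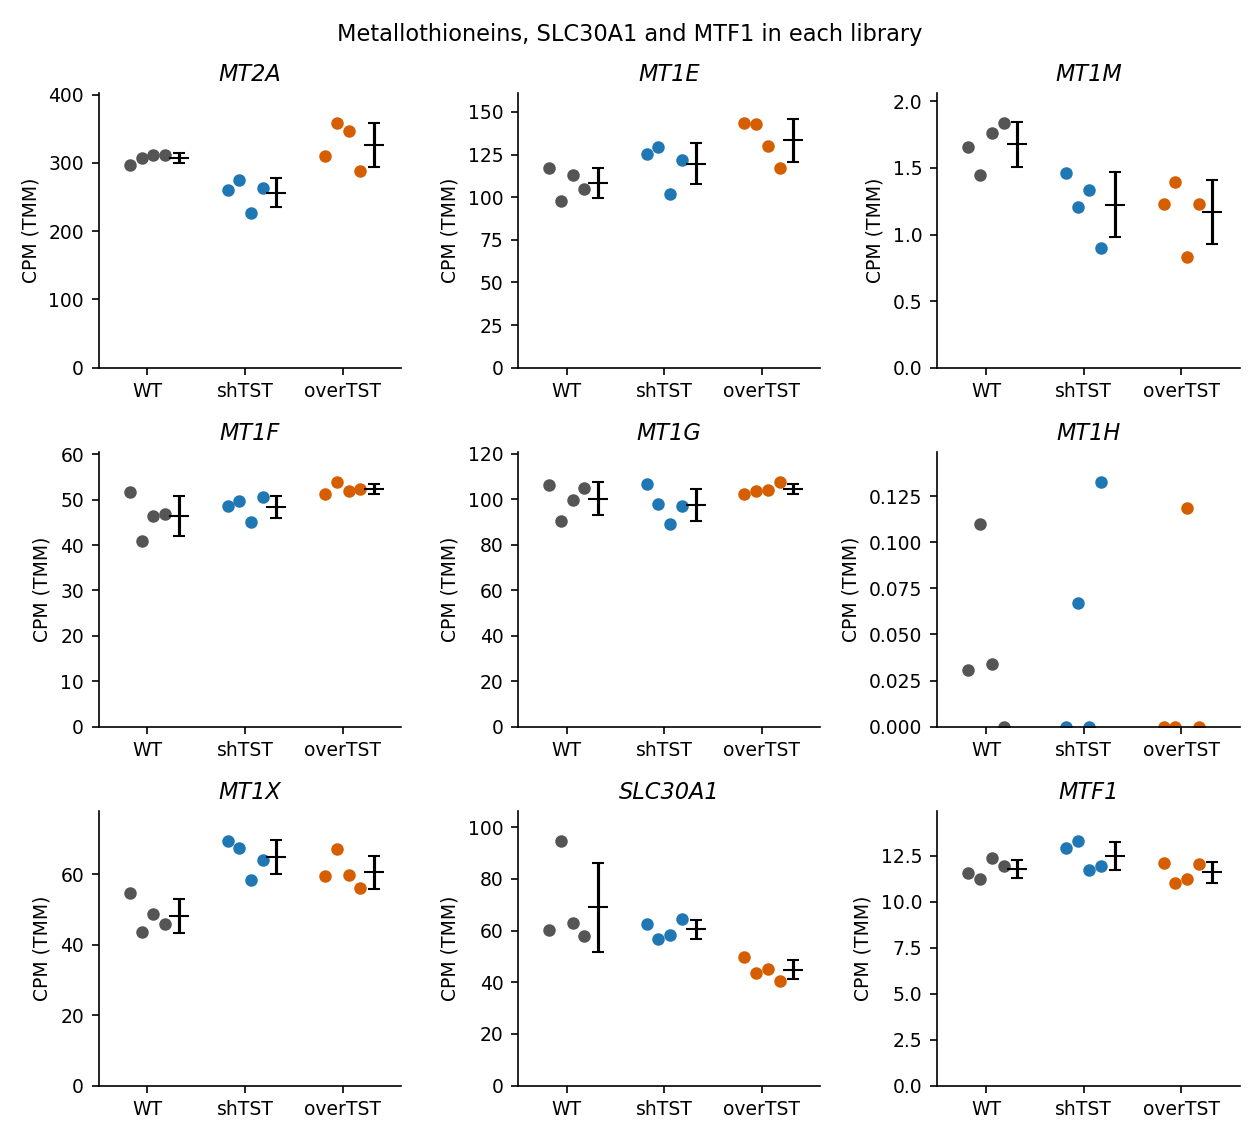
CPM (TMM-scaled) of the 7 metallothioneins in their order along chromosome 16, then SLC30A1 and MTF1, with 1 point per library and, beside the points, the mean and SD of the 4 libraries of each group (left out for MT1H). MT1X was higher in all 8 engineered libraries than in WT, MT2A was lower in shTST alone, and SLC30A1 was lowest in overTST with WT replicate 2 standing far above the other WT libraries.

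Silencing of TST was accompanied by opposite changes of MT1X and MT2A, and no other member passed the test. MT1X was at 54.8, 43.7, 48.7 and 45.8 CPM in the 4 WT libraries and at 69.5, 67.5, 58.5 and 64.1 CPM in shTST. Each shTST library was above each WT library. MT1X rose by a log2 fold change of 0.43 (SE 0.0645, edgeR quasi-likelihood test, adjusted p = 1.28e-04). MT2A, the main metallothionein of these cells, was at 297.0, 307.0, 312.1 and 311.0 CPM in WT and at 260.8, 275.2, 226.8 and 262.8 CPM in shTST. Here each shTST library was below each WT library. The share of all genes whose libraries separate in this way was not counted, for these groups or for those below. The log2 fold change of MT2A was -0.26 (SE 0.0501, adjusted p = 0.00135 in the same edgeR fit). Because whole cultures were sequenced, fewer cells with a transcript and less of it per cell cannot be told apart here or below.

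Thus 1 of the 8 tested members was called higher and 1 lower in shTST, against 6.69% of all tested genes called higher and 9.40% called lower. MT1E, at 102.0 to 129.6 CPM in shTST and 98.0 to 117.3 in WT, had a log2 fold change of 0.15 (SE 0.0639, edgeR adjusted p = 0.123), and without shTST replicate 3 it was called, at 0.22 (adjusted p = 0.0132). MT1F and MT1G differed by 0.06 and -0.04 on the log2 scale, with edgeR adjusted p-values of 0.546 and 0.685. The rare MT1M had 52 to 66 counts per WT library and 27 to 46 in shTST, and its log2 fold change of -0.44 had an SE of 0.194 (edgeR adjusted p = 0.124). MTF1 differed by 0.08 (SE 0.075, edgeR adjusted p = 0.496).

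For SLC30A1 the comparison turned on 1 library. WT replicate 2 had 94.7 CPM, while the other WT libraries had 60.4, 63.1 and 58.1 CPM and the shTST libraries 56.8 to 64.7 CPM. Its log2 fold change in shTST was -0.20 (SE 0.102, edgeR adjusted p = 0.206), and without WT replicate 2 it was 0.002 (adjusted p = 0.99). The same library was the most deeply sequenced, with 45120508 counts.

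The sum over the 7 metallothioneins was described without a test. It was 611.7 ± 20.9 CPM in WT (SD, n = 4), 588.2 ± 44.9 in shTST and 677.8 ± 44.0 in overTST, and the libraries of both engineered lines overlapped those of WT. Within the sum, MT2A made up 50.2% ± 2.3 in WT and 43.6% ± 0.75 in shTST, and MT1X made up 7.88% ± 0.58 and 11% ± 0.28. MT1E held 17.7% ± 0.89 in WT and 20.3% ± 0.59 in shTST, while MT1G held 16.4% ± 0.75 and 16.6% ± 0.77. The ratio of MT1X to MT2A counts needs no scaling of the libraries. Its log2 value was -2.67 ± 0.166 in WT, -1.98 ± 0.0608 in shTST and -2.42 ± 0.0783 in overTST. All 4 shTST libraries, between -2.03 and -1.91, lay above the other 8, which lay between -2.81 and -2.37. The ratio was not planned and joins the 2 members called in shTST. Its separation from WT therefore follows from their levels above and is not a further result.

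**Figure D2:**
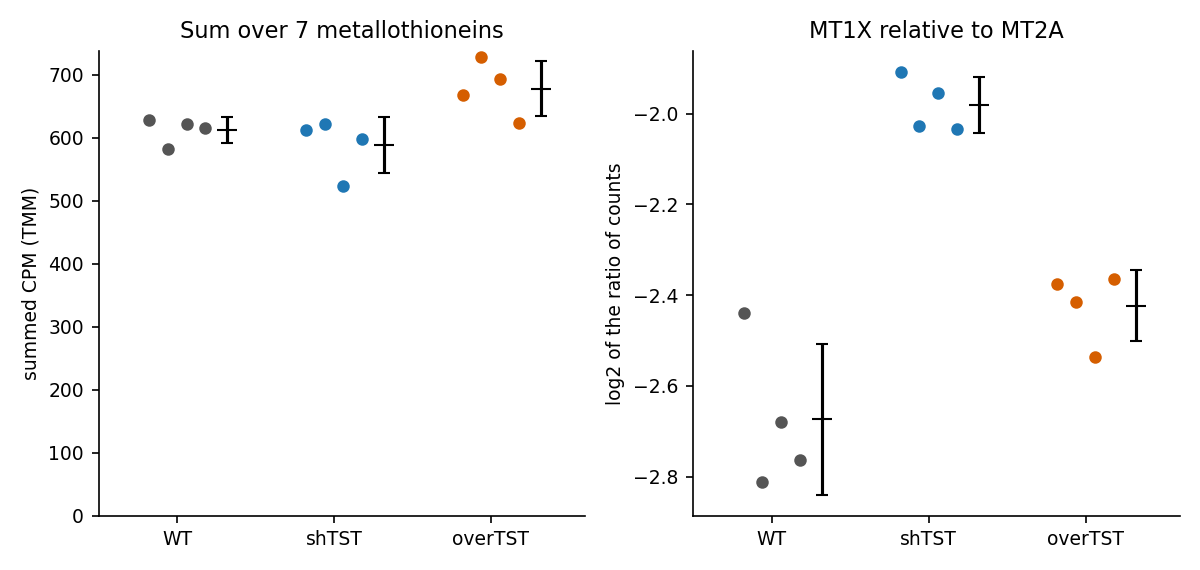
Left, CPM summed over the 7 metallothioneins in each library. Right, log2 of the ratio of MT1X to MT2A counts in each library, on an axis that does not start at 0, with mean and SD beside the 4 points of each group. The sums of both engineered lines overlapped WT, and the ratio in shTST lay above every other library, which for WT follows from the separate levels of MT1X and MT2A.

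In cells overexpressing TST, 3 metallothioneins of the MT1 group were higher than in WT and SLC30A1 was lower. MT1X was at 59.6, 67.2, 59.7 and 56.0 CPM in overTST, each above the highest WT library at 54.8 CPM. It rose by a log2 fold change of 0.33 (SE 0.0679, edgeR adjusted p = 5.51e-04). MT1E, which encodes another cadmium- and zinc-binding isoform, was at 143.6, 142.7, 129.8 and 117.2 CPM in overTST and at 117.3, 98.0, 113.1 and 104.6 in WT. The groups met only at overTST replicate 4 and WT replicate 1. Its log2 fold change was 0.30 (SE 0.0639, edgeR adjusted p = 7.29e-04).

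MT1F was at 51.4, 53.9, 52.0 and 52.4 CPM in overTST and at 51.7, 40.9, 46.5 and 46.9 in WT, with a log2 fold change of 0.18 (SE 0.0633, edgeR adjusted p = 0.0343). Only WT replicate 1 reached the overTST range, and leaving out 1 of 6 other libraries (WT replicate 2, 3 or 4, or overTST replicate 2, 3 or 4) in turn ended the call, with adjusted p-values of 0.0545 to 0.147. MT2A spread widely in overTST, at 309.4, 358.5, 346.5 and 288.5 CPM, on both sides of the WT range. Its log2 fold change was 0.09 (SE 0.0568, edgeR adjusted p = 0.255). MT1G and MTF1 had log2 fold changes of 0.06 (edgeR adjusted p = 0.418) and -0.02 (adjusted p = 0.871).

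SLC30A1, the zinc exporter of the plasma membrane, was at 49.6, 43.7, 45.3 and 40.7 CPM in overTST, all below the lowest WT library at 58.1 CPM. It fell by 0.63 on the log2 scale (SE 0.105, edgeR adjusted p = 6.70e-05). Without WT replicate 2, which had 94.7 CPM, the log2 fold change was -0.43 and the adjusted p 1.99e-05, so the size but not the call rested on that library. MT1M had 21 to 33 counts in overTST against 52 to 66 in WT, and its CPM was lower in each overTST library than in each WT library. The log2 fold change of MT1M was -0.51 (SE 0.207, edgeR adjusted p = 0.0589), and leaving out WT replicate 2 or overTST replicate 2 brought it just past the threshold (adjusted p = 0.0492 and 0.0496). In all, 3 of the 8 tested members were called higher and 1 lower, against 15.7% of all tested genes called higher and 18.2% called lower. The 3 have exonic lengths of 1052 to 1889 bases, and among all tested genes of 1 to 2 kb 31.7% were called higher. SLC30A1 has 5474 bases, and among genes of 4 to 8 kb 22.2% were called lower.

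**Figure D3:**
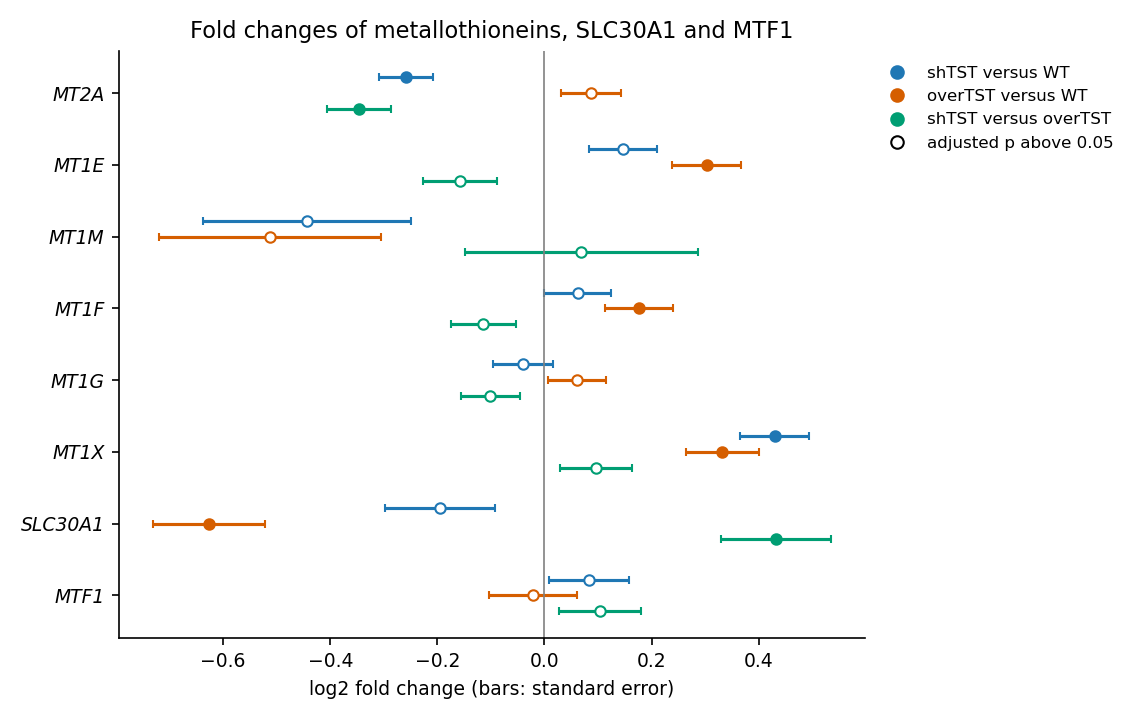
Log2 fold change and standard error of the 8 tested members in shTST versus WT, overTST versus WT and shTST versus overTST, with filled points where the edgeR adjusted p was 0.05 or less. MT1X lay to the right of 0 against WT in both lines, MT2A lay to the left where shTST was set against WT or overTST, and SLC30A1 lay farthest to the left in overTST versus WT.

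The changes in overTST followed the length of the gene, and this touches the metallothioneins, which are short. Among all tested genes, the median log2 fold change in overTST was 0.21 for exonic lengths up to 1 kb, 0.18 from 1 to 2 kb, -0.05 from 4 to 8 kb and -0.16 over 8 kb. The 7 metallothioneins have exonic lengths of 723 to 1889 bases, whereas SLC30A1 has 5474 and MTF1 8024. In shTST the corresponding medians were 0.06, 0.03, -0.01 and -0.02. The share of counts on the mitochondrial genome was 10.8% to 11.7% in overTST, 6.91% to 11.98% in WT and 6.84% to 8.66% in shTST, and its part in the result was not tested.

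With the trend over length taken out of the fit, MT1E had a log2 fold change of 0.13 (edgeR adjusted p = 0.14) and MT1F one of 0.03 (adjusted p = 0.761), so both calls were lost. The rise of MT1X was smaller but kept its call, at 0.18 (edgeR adjusted p = 0.0445), as did the fall of SLC30A1, at -0.57 (adjusted p = 1.41e-04). The correction took the exonic length of MT1X, 1773 bases. The 450 bases of its principal transcript were not tried there. MT1M was now called lower, at -0.69 (edgeR adjusted p = 0.0133). MT2A went from 0.09 to -0.09 (adjusted p = 0.244), MT1G from 0.06 to -0.12 (adjusted p = 0.0793) and MTF1 from -0.02 to 0.09 (adjusted p = 0.449), none of them called. In shTST the corrected values were 0.41 for MT1X (edgeR adjusted p = 1.24e-04) and -0.29 for MT2A (adjusted p = 6.37e-04), close to the uncorrected ones. What gave rise to the length trend was not tested.

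**Figure D4:**
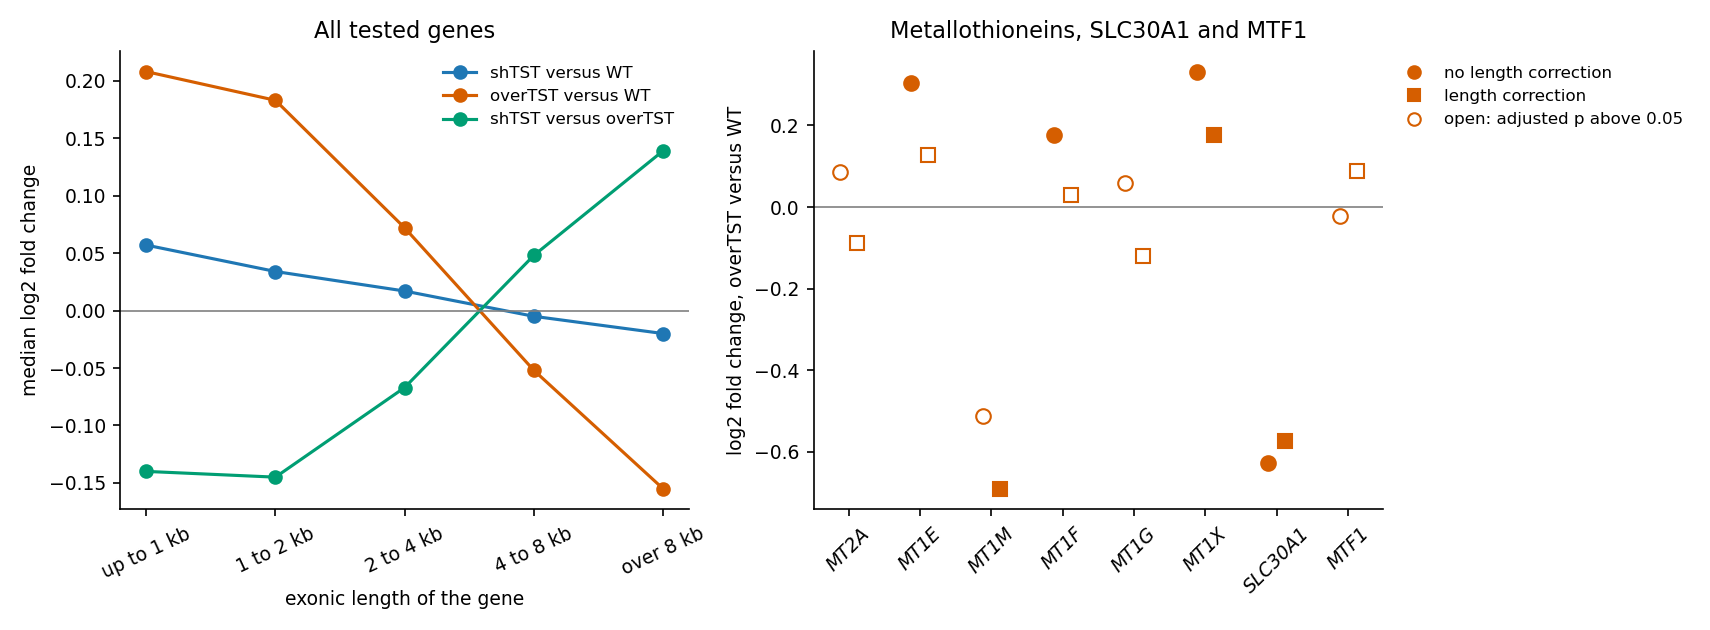
Left, median log2 fold change of all tested genes by exonic length for the 3 comparisons. Right, log2 fold change in overTST versus WT of the 8 tested members without (circles) and with (squares) the length correction, filled where the edgeR adjusted p was 0.05 or less. Short genes were shifted up in overTST, and after correction MT1X stayed called higher while MT1E and MT1F did not.

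The engineered lines were also set against each other in 1 fit over all 12 libraries, without a role for WT in the contrast. This comparison shares the engineered libraries with the 2 above and is not independent of them. MT2A was lower in shTST than in overTST, with no overlap between 226.8 to 275.2 and 288.5 to 358.5 CPM. The log2 fold change was -0.35 (SE 0.0597, edgeR adjusted p = 1.01e-04), and -0.20 with the length correction (adjusted p = 0.0135). SLC30A1 was higher in shTST, at 56.8 to 64.7 CPM, than in overTST, at 40.7 to 49.6 CPM. Its log2 fold change was 0.43 (SE 0.103, edgeR adjusted p = 0.0021), and limma-voom gave 0.43 with an adjusted p of 0.0646. A fit on the 8 engineered libraries alone, in which WT replicate 2 has no part, gave 0.43 for SLC30A1 with an edgeR adjusted p of 1.21e-05.

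Thus 1 of the 8 tested members was called higher and 1 lower in shTST relative to overTST, against 16.9% and 16.1% of all tested genes. MT2A has an exonic length of 1299 bases, and among all genes of 1 to 2 kb 27.6% were called lower. SLC30A1 has 5474 bases, and among genes of 4 to 8 kb 21.3% were called higher. MT1X, raised over WT in both lines, differed between them by 0.10 on the log2 scale (SE 0.067, edgeR adjusted p = 0.283), and with the length correction it was called higher in shTST, at 0.24 (adjusted p = 0.00934). MT1E and MT1F had log2 fold changes of -0.16 (edgeR adjusted p = 0.085) and -0.11 (adjusted p = 0.152). MT1E was called lower without shTST replicate 2 (-0.20, adjusted p = 0.0481) or overTST replicate 4 (-0.21, adjusted p = 0.0236) in the edgeR fit. MT1G differed by -0.10 (adjusted p = 0.168), MT1M by 0.07 (adjusted p = 0.844) and MTF1 by 0.10 (adjusted p = 0.323), all in the same edgeR fit.

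The other human metallothionein genes and pseudogenes were close to silent. Of 14 on the list, 5 had no count in any library, MT3, the brain form, and MT4, the form of stratified epithelium, among them. MT1A was at 1.05 to 1.26 CPM in WT, 0.787 to 1.37 in shTST and 1.499 to 1.865 in overTST. It was higher in overTST than in WT by 0.51 on the log2 scale (SE 0.196, edgeR adjusted p = 0.0481) and lower in shTST than in overTST by -0.71 (SE 0.208, adjusted p = 0.0105). MT1A had 22 to 50 counts per library and has an exonic length of 396 bases. All genes up to 1 kb had medians of 0.21 and -0.14 in these 2 comparisons. Without WT replicate 2 the change of MT1A in overTST was 0.45 and was not called (edgeR adjusted p = 0.118). MT2P1, a pseudogene of MT2A, was at 0.0869 to 0.593 CPM and was not called.

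The relatives of SLC30A1 in the ZnT family, which move zinc out of the cytosol into organelles or out of the cell, were partly lower in overTST. Of 6 tested, 3 were called lower and 0 higher than in WT (18.2% and 15.7% of all tested genes): SLC30A5 (log2 fold change -0.26, SE 0.0593), SLC30A6 (-0.28, SE 0.0706) and SLC30A10 (-0.31, SE 0.0896), with edgeR adjusted p-values of 0.0014, 0.00329 and 0.00971. SLC30A5 and SLC30A6 form a pair that loads zinc into the early secretory pathway, and SLC30A10 chiefly exports manganese. The median over the 6 was -0.18, against 0.00 over all tested genes. The 3 called have exonic lengths of 5410 to 5784 bases, and among all genes of 4 to 8 kb 22.2% were called lower and 10.8% higher. The part of length in these calls was not tested. In shTST 2 of 6 were called higher (6.69% of all tested genes), SLC30A3 (0.49, SE 0.138, edgeR adjusted p = 0.0181), a transporter best known from synaptic vesicles, and SLC30A10 (0.29, SE 0.0858, adjusted p = 0.0229), and the median was 0.12. The call of SLC30A3 was lost without WT replicate 2 (0.39, adjusted p = 0.0671). SLC30A10 was at 13.6 to 16.9 CPM in shTST, 11.3 to 14.3 in WT and 9.66 to 10.5 in overTST. Between the engineered lines 4 of the 6 ZnT genes were called higher in shTST and 0 lower, against 16.9% and 16.1% of all tested genes. Among genes of 4 to 8 kb, 21.3% were called higher and 13.2% lower. The largest difference was that of SLC30A10 (0.60, SE 0.0883, edgeR adjusted p = 1.87e-05).

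Among the ZIP family, which brings zinc into the cytosol, 5 of 12 tested genes were called lower and 1 higher in overTST, against 18.2% and 15.7% of all tested genes. SLC39A14, a liver importer of zinc, iron and manganese that is induced in inflammation, was at 322.5 to 371.1 CPM in overTST, below the 518.7 to 541.2 CPM of WT. It fell by 0.64 on the log2 scale (SE 0.0512, edgeR adjusted p = 7.79e-09). In shTST it was at 413.5 to 466.8 CPM, and it fell by 0.26 there (SE 0.0449, edgeR adjusted p = 5.23e-04). SLC39A6 and SLC39A10, close relatives that act together at the plasma membrane, fell in overTST by 0.44 (SE 0.0617, edgeR adjusted p = 8.98e-06) and 0.54 (SE 0.115, adjusted p = 8.25e-04), and the 1 member called higher was SLC39A3 (0.17, SE 0.0645, adjusted p = 0.0426). Without WT replicate 2 the counts were 4 lower and 0 higher. SLC39A14 and SLC39A10 have exonic lengths of 6942 and 6917 bases, and 22.2% of all genes of 4 to 8 kb were called lower in overTST. SLC39A6 has 3682 bases, and 6.97% of genes of 2 to 4 kb were called lower. In shTST 2 of 12 were lower (9.40% of all tested genes) and 0 higher, SLC39A14 and SLC39A4, the intestinal zinc importer (-0.27, SE 0.0568, edgeR adjusted p = 0.00272). The level summed over the 14 ZIP genes was 1386 to 1443 CPM in WT, 1281 to 1306 in shTST and 1212 to 1255 in overTST. Against each other, 4 of the 12 were called higher in shTST than in overTST and 3 lower (16.9% and 16.1% of all tested genes), led by SLC39A14 (0.38, SE 0.0489, edgeR adjusted p = 4.05e-06).

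**Figure D5:**
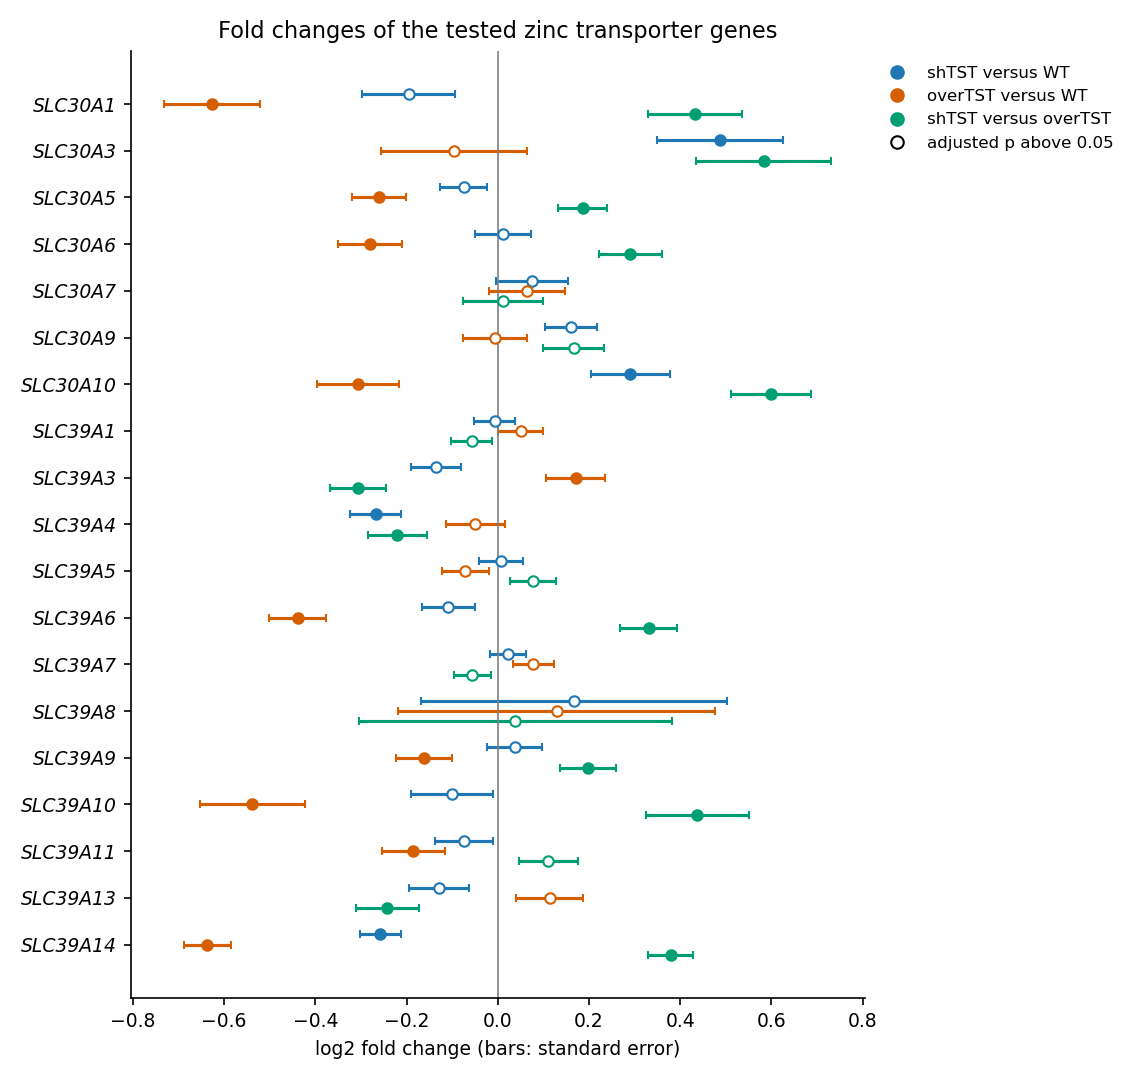
Log2 fold change and standard error of SLC30A1 and of the tested genes of the ZnT (SLC30) and ZIP (SLC39) families in the 3 comparisons, filled where the edgeR adjusted p was 0.05 or less. SLC30A1 and SLC39A14 lay farthest to the left in overTST versus WT, and SLC30A10 lay to the right in shTST and to the left in overTST.

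Copper, which metallothioneins also bind, is handled by a separate set of proteins, of which all 10 listed were tested. In overTST 4 were called higher and 2 lower than in WT, against 15.7% and 18.2% of all tested genes. CCS, the chaperone that loads copper into SOD1, rose by 0.40 on the log2 scale (SE 0.0564, edgeR adjusted p = 8.98e-06), while the liver copper exporter ATP7B fell by 0.47 (SE 0.0543, adjusted p = 8.09e-07) and the importer SLC31A1 fell by 0.32 (SE 0.0499, adjusted p = 3.56e-05). ATP7B has an exonic length of 9671 bases and SLC31A1 of 5127, in length classes with 41.6% and 22.2% of genes called lower. CCS, at 2474 bases, is in a class with 22.2% called higher. In shTST 1 was higher, CCS (0.16, SE 0.0507, edgeR adjusted p = 0.033), and 1 lower, SLC31A1 (-0.15, SE 0.0422, adjusted p = 0.0205), against 6.69% and 9.40% of all tested genes. The call of CCS in shTST was lost without WT replicate 2 (0.14, adjusted p = 0.0842). Between the lines 2 were higher and 2 lower in shTST, against 16.9% and 16.1% of all tested genes.

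A list of metal and oxidative stress genes holds several that respond to heavy metals as metallothioneins do. In overTST 6 of 11 tested were called lower and 1 higher, against 18.2% and 15.7% of all tested genes, and in shTST 5 were lower and 1 higher, against 9.40% and 6.69%. Without WT replicate 2, 4 were lower and 2 higher in either line. The 1 called higher in both lines was HMOX1, heme oxygenase, which rose by 0.15 in overTST (SE 0.0544, edgeR adjusted p = 0.0388) and by 0.25 in shTST (SE 0.0552, adjusted p = 0.00334), the first of which was not called without WT replicate 2 (adjusted p = 0.0714). HSPH1, a chaperone, fell by 0.54 in overTST (SE 0.0637, edgeR adjusted p = 1.16e-06). SRXN1, sulfiredoxin, fell by 0.48 in overTST (SE 0.0977, edgeR adjusted p = 5.40e-04) and by 0.45 in shTST (SE 0.096, adjusted p = 0.00275). HSPA1A, the inducible heat shock protein, fell by 0.39 in overTST and by 0.38 in shTST, with edgeR adjusted p-values of 0.00227 and 0.00554, and NQO1 fell by 0.19 in shTST (adjusted p = 0.00672). WT replicate 2 was the highest WT library for SRXN1 (37.6 CPM) and HSPA1A (51.7 CPM). Without it the log2 fold changes in overTST and shTST were -0.36 and -0.34 for SRXN1 and -0.28 and -0.28 for HSPA1A, all still called. HSPH1 has an exonic length of 8390 bases, and 41.6% of all genes over 8 kb were called lower in overTST. SRXN1, HSPA1A and HMOX1 have 2698, 2483 and 2405 bases. Among genes of 2 to 4 kb, 6.97% were called lower and 22.2% higher in overTST. Between the lines 1 gene of this list was higher and 2 lower in shTST, against 16.9% and 16.1% of all tested genes.

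Glucocorticoids are another known inducer of metallothioneins, and of 9 tested genes that respond to them 3 were called lower and 1 higher in overTST, against 18.2% and 15.7% of all tested genes. WT replicate 2 stood above the other WT libraries here too, at 11.98 CPM of KLF9 against 8.09 to 9.13 and at 50.1 CPM of SGK1 against 26.5 to 30.1. KLF9 fell by 0.67 in overTST (SE 0.121, edgeR adjusted p = 1.70e-04) and by 0.55 in shTST (SE 0.118, adjusted p = 0.00299), where it was the 1 gene called. Without WT replicate 2 these falls were 0.51 (edgeR adjusted p = 9.35e-04) and 0.40 (adjusted p = 0.0116), and SGK1, named after its values were seen and lower by -0.41 in overTST (adjusted p = 0.0164), was no longer called (-0.15, adjusted p = 0.123). CEBPD rose by 0.38 in overTST (SE 0.0945, edgeR adjusted p = 0.00295). FKBP5 fell by 0.21 there (SE 0.0632, adjusted p = 0.0114). FKBP5 and SGK1 have exonic lengths of 10628 and 9992 bases, in a class with 41.6% of genes called lower in overTST. KLF9, at 5175 bases, is in a class with 22.2% called lower. CEBPD, at 2178 bases, is in a class with 22.2% called higher. With the length correction, 6 genes of the stress and glucocorticoid lists together were called in overTST, against 11 without it. Between the lines 2 glucocorticoid genes were higher and 1 lower in shTST, against 16.9% and 16.1% of all tested genes.

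Of 6 tested genes that flank the metallothionein cluster on chromosome 16, none was called higher than WT in overTST and 1 was lower, against 15.7% and 18.2% of all tested genes. NUDT21, a cleavage factor of mRNA 3′ ends, was the 1 called there, lower by -0.19 (SE 0.049, edgeR adjusted p = 0.00354). It has an exonic length of 5954 bases, and 22.2% of all genes of 4 to 8 kb were called lower in overTST.

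The 5 genes whose log2 CPM followed that of MT2A most closely over the 12 libraries, of 11554 compared, were EHD2 (Pearson r = 0.968), TIMP1 (r = 0.947), EIF2B2 (r = 0.94), KCMF1 (r = 0.937) and RPS6KA4 (r = 0.925). No other metallothionein came near these values, with r of 0.46 for MT1G, 0.39 for MT1E, 0.32 for MT1F and -0.21 for MT1X. The points share the 3 groups and the TMM scaling, so the coefficients describe these libraries. Among the MT1 genes the closest pair was MT1E and MT1F at r = 0.82.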

How the data were processed

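RNA sequencing of 12 HepG2 libraries was analysed, 4 each of WT, shTST and overTST, grouped by the sample labels. The authors deposited raw counts per Ensembl gene for each library. The submitters' processing notes name Trimmomatic 0.36, STAR 2.5.2b, featureCounts of Subread 1.5.2 and GRCh38, and the annotation release, the use of strand and the handling of reads that match several genes are not given in the sources used here. Genes were tested with edgeR 4.0.16 (quasi-likelihood test, TMM scaling, filterByExpr at its defaults) in R 4.3.3, with Benjamini-Hochberg adjustment over all genes tested and calls at 0.05. Comparisons with WT used their own 8 libraries and shared the WT libraries, and shTST versus overTST used all 12. Log2 values used a prior count of 2. DESeq2 1.42.0, limma 3.58.1 and other scalings, filters, a replicate block, a length correction (lowess, span 0.3) and fits without 1 library were alternatives. No 2 libraries of the same group were duplicates, since the chi-square per gene between replicates was 3.58 or more. Libraries of different groups were not compared in this way. The members and gene lists were chosen with earlier results of these data known. All 9 members are named, and of the other lists the called genes with the smallest p, up to 3 per list and comparison, plus TST and the 5 genes most like MT2A. The fits were tested on simulated data. Some results of the listed genes are not reported here.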

Additional observations from a re-analysis of the deposited data

Results flagged for a closer look

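SLC30A1 in WT replicate 2 stood apart from the other 3 WT libraries, at 94.7 CPM against a next value of 63.1 CPM, a gap of 0.863 of the range of the group. MT1H in overTST replicate 3 was at 0.118 CPM (3 counts) while the other overTST libraries were at 0, so that its gap equals the range by construction and says nothing beyond a few counts. Both passed Dixon's critical value among 27 groups of 4 libraries, of which chance passes about 1 in 20.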

How the results depend on the processing

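The calls of MT1X and MT2A in shTST and of MT1X and SLC30A1 in overTST held under every alternative run, and the fall of MT2A from overTST to shTST did too. With the length correction, overTST versus WT gave 1 member higher and 2 lower and 6 genes of the stress and glucocorticoid lists. MT1G (-0.121), MT2A (-0.088) and MTF1 (0.088) changed sign there, and so did MT1F (0.018) and MT1G (0.043) in shTST versus overTST, where 2 members were higher. What the replicate numbers share is not given in the labels, and correlations of same-numbered libraries were -0.053 to 0.08, which cannot decide it. The replicate block gave 1247 genes higher and 1733 lower in shTST versus WT, against 975 and 1371 without it. With the replicate block, 2 members were lower in shTST versus overTST and MT1E had -0.155 (adjusted p = 0.0482). With the length correction and the replicate block together, overTST versus WT gave 1 member higher, 3 lower and 7 stress or glucocorticoid genes, with -0.119 for MT1G, -0.092 for MT2A and 0.087 for MTF1. The same fit gave 10 zinc and copper genes in shTST versus WT, and 2 members higher, 0.018 for MT1F and 0.041 for MT1G between the lines. Without a filter, 2 members were lower in shTST, SLC30A1 added (-0.206, adjusted p = 0.00328), and MT1F lost its call in overTST (0.153, adjusted p = 0.0861). The filter at 1 CPM in 4 libraries gave 2 members lower in overTST. Limma-voom gave 0 members higher between the lines, and upper-quartile scaling gave 0.006 for MTF1 in overTST. The cause of these changes was not tested. By the length of the principal transcript, levels in WT were 390.3 CPM per kb for MT2A, 247.0 for MT1G, 153.8 for MT1E, 107.2 for MT1X, 67.4 for MT1F and 2.02 for MT1M, in the same order. This alternative, and the values of listed genes without WT replicate 2, were chosen after the data were seen. Leaving out 1 library at a time, the calls in shTST versus WT were 1513 to 2336 genes (1513 without shTST replicate 1), 1 to 2 members higher and 3 to 7 zinc and copper genes (3 without shTST replicate 1 or 4). In overTST versus WT they were 1 to 2 members lower, 10 to 16 zinc and copper genes (10 without WT replicate 4) and 7 to 12 stress or glucocorticoid genes (7 without WT replicate 1 or overTST replicate 4), and between the lines 1 to 2 members lower. Signs changed in shTST for SLC30A1 (-0.265 to 0.002, positive without WT replicate 2) and MT1G (-0.089 to 0.004, positive without shTST replicate 3), in overTST for MTF1 (-0.046 to 0.005, positive without WT replicate 3 or overTST replicate 2), and between the lines for MT1M (-0.068 to 0.191, negative without shTST replicate 1 or overTST replicate 3). Depth limits MT1H and MT1M.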
